A study of Mus musculus with 8 samples.

Results

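The 10 genes described here encode receptors for 4 neuropeptide families in the mouse. They are the neuropeptide Y receptor genes *Npy1r*, *Npy2r* and *Npy5r*, the cholecystokinin receptor genes *Cckar* and *Cckbr*, the opioid receptor genes *Oprm1*, *Oprd1* and *Oprk1*, and the somatostatin receptor genes *Sstr1* and *Sstr2*. They were chosen by gene name, with an earlier comparison of the same brains in view in which *Cckar* was among the largest rises, and all 10 names were found among the 33971 genes of the table. Polyadenylated RNA of the whole brain was sequenced in bulk from WT embryos at E14.5. Their WT dams, mated with WT males, had received a choline-deficient diet (CDD, 4 brains) or normal chow (ND, 4 brains). The study's text starts the CDD on the day of mating in one place and before mating in another. No embryo carried a deletion or transgene, and the comparison asks what a shortage of choline in the dam's food does to gene expression in the fetal brain. How many dams and litters the brains came from is not given in the sources used here, so the p-values measure the spread between these brains. Since the choice of genes was made with results in view, the differences of the 10 receptors between the diets are a description and not independent evidence.

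The reads counted on genes numbered 31770217 to 43121170 per brain. Levels are given as CPM, the count relative to the library total after TMM scaling, and the diets were compared with edgeR's quasi-likelihood test with Benjamini-Hochberg adjustment over 19367 genes. A gene was called higher or lower in CDD brains at an adjusted p-value under 0.05. This held for 8.83% of tested genes, 4.24% higher and 4.59% lower, and in 15.0% of tested genes the 4 CDD brains and the 4 ND brains did not overlap. The median log2 fold change of all tested genes was -0.0038, and the share of all genes below 0 was not taken. CDD replicate 2 stood apart in genes of the caudal nervous system, with a summed level of 140.6 CPM over the Hox genes listed and 0.375 to 2.99 CPM in the 7 other brains, so values without it are given where they differ in call. In bulk tissue, fewer cells of a type and less RNA per cell cannot be told apart.

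Neuropeptides are short signalling peptides cut from larger precursors and released by neurons, often beside a classical transmitter. Their receptors span the membrane and act through G proteins. The receptors for neuropeptide Y, opioid peptides and somatostatin couple mainly to the inhibitory Gi/o class, which lowers cyclic AMP and opens potassium channels, whereas the cholecystokinin receptors couple mainly to Gq and raise calcium. Neuropeptide Y receptors are known for their part in feeding and anxiety, cholecystokinin receptors for satiety and digestion, opioid receptors for pain and reward, and somatostatin receptors for the inhibition of hormone release and of neurons. In a preparation of the whole brain, transcripts of genes used by few neurons are diluted by those of all other cells.

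The sequence before the start site is shown for *Npy1r*, the receptor gene called lower, for its neighbour *Npy5r*, which was not called, and for *Sstr2*, the receptor gene with the highest level. *Npy1r* (ENSMUSG00000036437, chromosome 8, 67149844 to 67159444, plus strand) and *Npy5r* (ENSMUSG00000044014, chromosome 8, 67132617 to 67140780, minus strand) point away from each other, with starts 9064 bases apart in the authors' table, whose genome build is not given in the sources used here. The sequences are the 250 bases before the RefSeq start on GRCm38.p6, 5′ to 3′ on the gene's strand, at chr8:66697172-66697421 (plus strand), chr8:66688095-66688344 (minus strand) and chr11:113619077-113619326 (plus strand). Capitals mark the letters of 5 motifs searched on both strands, which were the TATA box (TATAAA), the GC box (GGGCGG), the CCAAT box, the cyclic AMP response element (TGACGTCA) and an E-box (CAGCTG).
Npy1r: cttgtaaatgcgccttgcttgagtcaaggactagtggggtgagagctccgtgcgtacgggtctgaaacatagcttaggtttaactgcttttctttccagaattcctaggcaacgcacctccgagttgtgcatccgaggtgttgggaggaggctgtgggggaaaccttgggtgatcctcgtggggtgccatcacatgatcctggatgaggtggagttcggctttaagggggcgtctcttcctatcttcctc
Npy5r: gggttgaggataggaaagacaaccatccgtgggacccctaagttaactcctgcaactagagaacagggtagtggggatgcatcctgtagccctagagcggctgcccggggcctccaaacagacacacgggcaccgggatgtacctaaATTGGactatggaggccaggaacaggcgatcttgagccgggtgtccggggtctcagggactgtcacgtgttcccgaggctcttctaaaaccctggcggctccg
Sstr2: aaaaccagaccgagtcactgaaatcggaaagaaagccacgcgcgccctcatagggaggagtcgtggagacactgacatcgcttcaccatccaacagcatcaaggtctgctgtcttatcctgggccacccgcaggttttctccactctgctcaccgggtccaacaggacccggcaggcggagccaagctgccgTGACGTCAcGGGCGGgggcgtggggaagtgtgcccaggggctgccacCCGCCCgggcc

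None of the 5 motifs was found in the *Npy1r* sequence. That of *Npy5r* held 1 match, to CCAAT on the opposite strand (ATTGG), which is found in 33.8% of 32851 promoter windows of the same length. The *Sstr2* sequence held TGACGTCA, the letters of the cyclic AMP response element, at 58 bases before the start, a run found in 1.55% of windows. It also held GGGCGG on each strand. This run is found on at least 1 strand in 32.7% of windows, and the share with it on both strands was not taken. The TATAAA run is in 12.4% and CAGCTG in 13.0% of windows. Promoter windows were found for 7 of the 10 receptor genes, and *Cckar*, *Oprk1* and *Sstr1* were not among them. In the 3 sequences shown no match overlapped another. A match is a run of letters and was not tested as a binding site.

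The authors' FPKM scale divides by gene length so that genes can be set beside each other. It uses 1 length per gene, from 2046 bases for *Sstr1* to 9151 bases for *Oprk1*, and the order depends on these lengths. In CPM, without length, the ND means of *Oprk1* (1.53) and *Oprm1* (1.19) lay above that of *Cckar* (1.13). Which transcripts the brains used was not tested. In FPKM, *Sstr2* had the highest level of the 10 receptor genes in ND brains, at 16.8 ± 0.575 FPKM (SD, n = 4). *Sstr1* followed at 4.54 ± 0.508 FPKM (SD, n = 4) and *Npy1r* at 1.89 ± 0.0943 FPKM (SD, n = 4), and none of these 3 overlapped with the next gene in the order in any ND brain. *Cckbr* at 0.802 FPKM and *Npy2r* at 0.597 FPKM overlapped in ND brains, and *Npy2r* lay above *Cckar* (0.305 FPKM) in each of them. *Cckar*, *Npy5r* (0.210), *Oprd1* (0.175), *Oprk1* (0.166) and *Oprm1* (0.147 FPKM) formed a low end in which each gene overlapped with its neighbour. In CDD brains the first 3 ranks were unchanged, and *Cckar* stood at rank 4 with 0.675 FPKM, where it was at rank 6 in ND brains. *Cckbr* stood at rank 6 with 0.513 FPKM, where it was at rank 4. The CDD ranges of *Cckar* (0.541 to 0.896), *Npy2r* (0.573 to 0.589) and *Cckbr* (0.317 to 0.655 FPKM) overlapped, so these ranks were not separated brain by brain. *Oprk1* and *Oprm1*, at ranks 9 and 10 in ND brains, exchanged places in CDD brains, with ranges that overlapped in both diets. Among the 68 neuropeptide receptor genes in the table, *Sstr2* was at rank 3 in ND brains, behind the PACAP receptor gene *Adcyap1r1* (24.2 FPKM) and the nociceptin receptor gene *Oprl1* (24.0 FPKM), and *Oprm1* was at rank 50. *Adcyap1r1* and *Oprl1* were named after their values were seen.

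**Figure D1:**
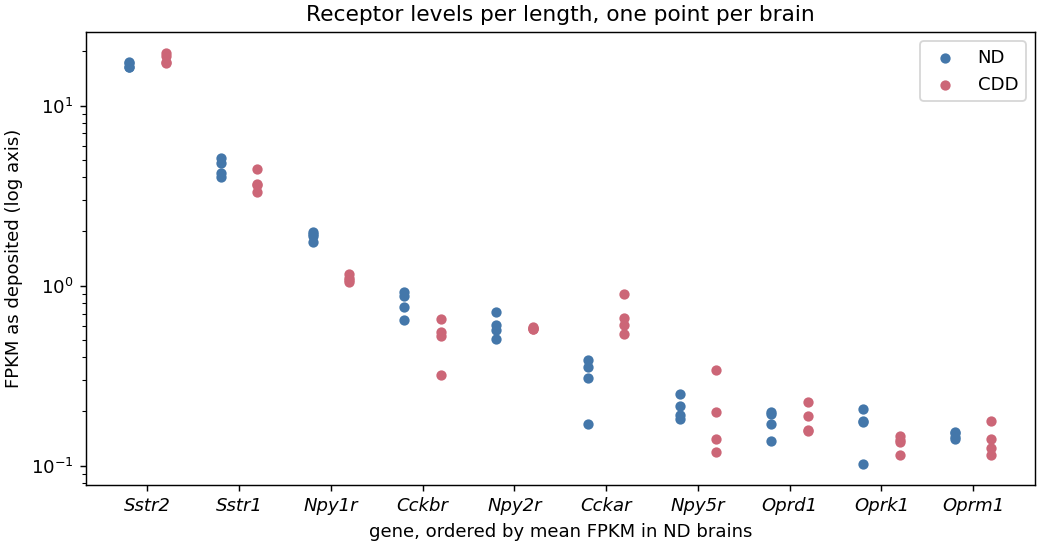
Levels of the 10 receptor genes as deposited FPKM on a log axis, 1 point per brain, 4 ND (blue) and 4 CDD brains (red), with genes ordered by their mean in ND brains. *Sstr2* lies above 16 FPKM in each brain and the 3 opioid receptor genes lie under 0.3 FPKM, and *Cckar* moves from rank 6 in ND to rank 4 in CDD brains. In CDD brains the range of *Cckar* overlaps those of *Npy2r* and *Cckbr*.

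Of the 10 receptor genes, 1 was called higher (*Cckar*) and 1 lower (*Npy1r*) in CDD brains, and 8 were not called, beside the 8.83% of all tested genes called in either direction. The log2 fold change was above 0 for 3 and below 0 for 7 of them, with a median of -0.08 beside -0.0038 for all tested genes. All 10 passed the filter on low counts and reached its cutoff in each brain, so none entered through the diet in which it was higher. The plot of CPM by diet shows *Npy1r* and *Cckar* as the 2 genes of the 10 whose diets did not overlap, beside 15.0% of all tested genes, and the other 8 with brains of both diets in a shared range.

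**Figure D2:**
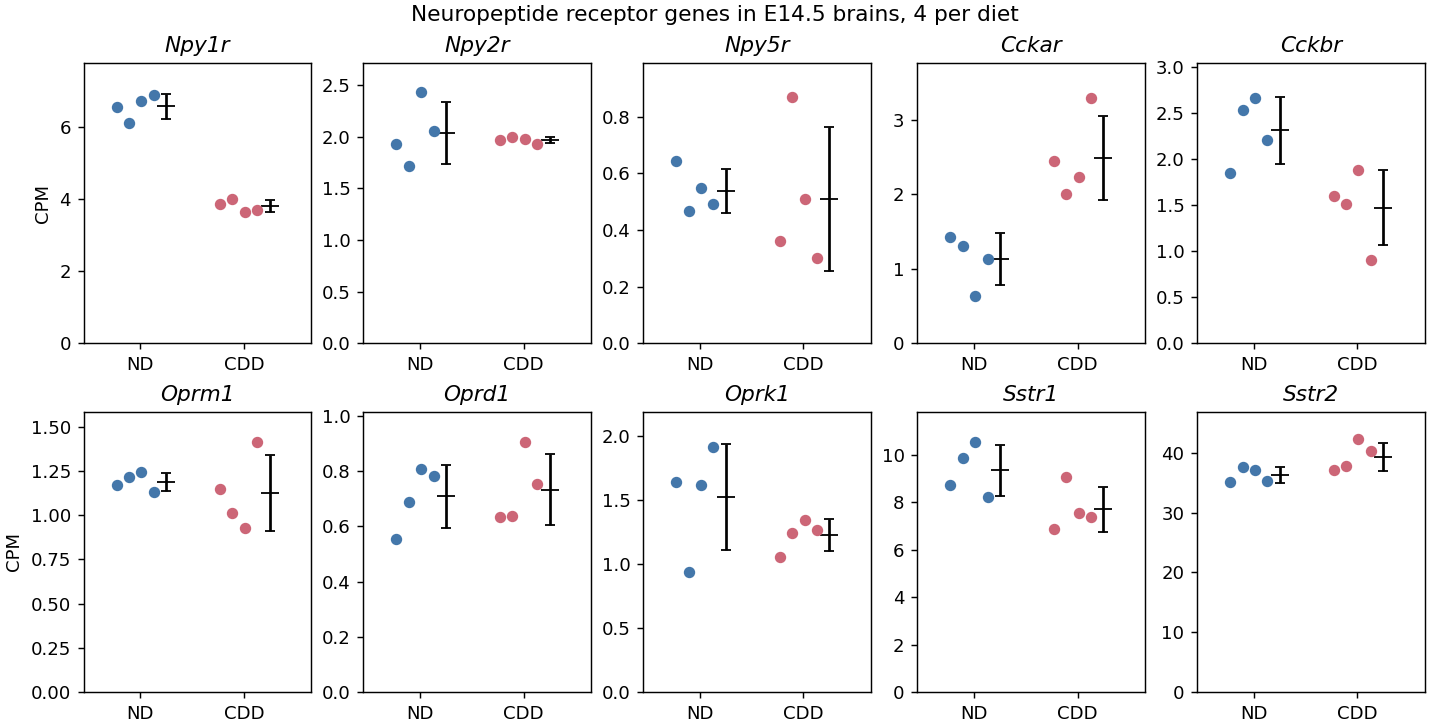
TMM-scaled CPM of the 10 receptor genes, 1 panel per gene with its own axis from 0, 1 point per brain, with the mean (bar) and SD (whiskers) of 4 brains per diet. The ND brains of *Npy1r* sit between 6.10 and 6.87 CPM and the CDD brains between 3.65 and 4.00, while for *Cckar* the CDD brains sit between 2.00 and 3.29 and the ND brains between 0.636 and 1.43.

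*Npy1r*, which encodes the Y1 receptor, the main postsynaptic receptor for neuropeptide Y, was lower in CDD brains. Its level was 3.86, 4.00, 3.65 and 3.68 CPM in CDD replicates 1 to 4 and 6.55, 6.10, 6.71 and 6.87 CPM in ND replicates 1 to 4. Each CDD brain lay below each ND brain, and the spread within each diet was narrow. The means were 3.80 ± 0.165 (SD, n = 4) with CDD and 6.56 ± 0.334 CPM (SD, n = 4) with ND. The log2 fold change was -0.79 (standard error, SE, 0.105, edgeR adjusted p = 0.000671), with a 95% interval of -1.01 to -0.57, and the gene stood at rank 11 of all tested genes by p-value. It rested on 545 reads in CDD and 888 in ND brains. *Npy1r* was called lower with each of the 8 brains left out in turn, with a log2 fold change of -0.82 to -0.77, and in each of 7 other fits.

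*Npy2r* encodes the Y2 receptor, which sits largely on the terminals that release neuropeptide Y. It was at 1.96, 2.00, 1.97 and 1.93 CPM in CDD and at 1.93, 1.72, 2.43 and 2.06 CPM in ND replicates 1 to 4. The CDD brains lay inside the range of the ND brains, and the log2 fold change was -0.05 (95% interval -0.38 to 0.28, edgeR adjusted p = 0.888). *Npy5r*, the gene of the Y5 receptor known for feeding, was at 0.362, 0.869, 0.511 and 0.302 CPM in CDD and at 0.644, 0.469, 0.549 and 0.493 CPM in ND brains. These levels rested on 10 to 30 reads per brain, and the highest and the lowest value were both from CDD brains. Its log2 fold change was -0.07 with a 95% interval of -0.76 to 0.62 (edgeR adjusted p = 0.927), an interval that nearly reaches the change of *Npy1r* at its lower end. Without CDD replicate 2, which held the highest value, its log2 fold change was -0.43 (edgeR adjusted p = 0.482).

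The ratio of *Npy1r* to *Npy2r* within a brain was 1.93, 1.96, 1.81 and 1.87 in CDD and 3.32, 3.47, 2.71 and 3.27 in ND replicates 1 to 4, taken from FPKM. The diets did not overlap in this ratio, which follows the level of *Npy1r*. The ratio of *Npy1r* to *Npy5r* was 3.40 to 9.03 in CDD and 7.53 to 10.3 in ND brains, and overlapped. *Npy*, the gene of the shared ligand, was at 9.06, 10.6, 9.66 and 6.45 CPM in CDD and 11.3, 9.38, 11.7 and 10.7 CPM in ND brains. Brains of both diets overlapped, with a log2 fold change of -0.27 (95% interval -0.53 to -0.01, edgeR adjusted p = 0.195). The genes of the related peptides YY (*Pyy*) and pancreatic polypeptide (*Ppy*) did not pass the filter on low counts. *Pyy* reads were seen in CDD replicate 2 alone, at 0.203 CPM.

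*Cckar* and *Cckbr* encode the receptors for cholecystokinin. The CCK1 receptor, the product of *Cckar*, is known mainly from the gut, the vagal nerve and scattered brain nuclei, and the CCK2 receptor, the product of *Cckbr*, is the main form in the brain. *Cckar* (ENSMUSG00000029193, chromosome 5, 53855118 to 53865047, minus strand) was at 2.45, 2.00, 2.23 and 3.29 CPM in CDD and at 1.43, 1.31, 0.636 and 1.13 CPM in ND replicates 1 to 4. Each CDD brain lay above each ND brain, and the values spread more widely than those of *Npy1r*. The means were 2.49 ± 0.562 (SD, n = 4) with CDD and 1.13 ± 0.351 CPM (SD, n = 4) with ND, from 355 and 152 reads. Its log2 fold change was 1.14 (SE 0.223, edgeR adjusted p = 0.00475), with a 95% interval of 0.67 to 1.61, which is a 2.20-fold higher level. It was called higher with each of the 8 brains left out in turn (log2 fold change 0.94 to 1.28) and in each of 7 other fits. Without CDD replicate 2 the log2 fold change was 1.23 (edgeR adjusted p = 0.00499).

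*Cckbr* (ENSMUSG00000030898, chromosome 7, 105074938 to 105120105, plus strand) had its lower values in CDD brains, and the call depended on the fit. It was at 1.60, 1.51, 1.88 and 0.905 CPM in CDD and at 1.84, 2.53, 2.66 and 2.20 CPM in ND replicates 1 to 4. CDD replicate 3 lay just above ND replicate 1, and the 3 other CDD brains lay below all ND brains. The means were 1.47 ± 0.411 (SD, n = 4) and 2.31 ± 0.366 CPM (SD, n = 4), with a log2 fold change of -0.63 (SE 0.201, 95% interval -1.05 to -0.22, edgeR adjusted p = 0.0546). It was called lower with DESeq2 (log2 fold change -0.64, adjusted p = 0.0346), with no filter on low counts in edgeR (-0.63, adjusted p = 0.0188) and in edgeR without CDD replicate 3 (-0.78, adjusted p = 0.0206). The call was also gained in edgeR with the replicate number as a block (-0.66, adjusted p = 0.0345). Altogether *Cckbr* was called in 1 of 8 fits with a brain left out and in 3 of 7 other fits. It was not called without ND replicate 3 (-0.56, edgeR adjusted p = 0.186) or CDD replicate 4 (-0.47, edgeR adjusted p = 0.128). With limma-voom the adjusted p-value was 0.0736.

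The ligand gene *Cck* was lower in CDD brains. It was at 6.16, 5.62, 5.83 and 5.40 CPM in CDD and at 8.75, 6.50, 8.21 and 7.13 CPM in ND replicates 1 to 4. The diets did not overlap, although the lowest ND brain was close to the highest CDD brain. CDD over ND gave a log2 fold change of -0.41 (SE 0.108, edgeR adjusted p = 0.0237). The call was lost without ND replicate 1 (-0.34, edgeR adjusted p = 0.105) or ND replicate 3 (-0.38, edgeR adjusted p = 0.103). Gastrin, the other peptide that binds the CCK2 receptor, is encoded by *Gast*, which was at 0 to 0.241 CPM and did not pass the filter.

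Within a brain, the FPKM ratio of *Cckar* to *Cckbr* was 1.19, 1.03, 0.921 and 2.82 in CDD and 0.605, 0.403, 0.186 and 0.399 in ND replicates 1 to 4. It was above 1 in 3 of 4 CDD brains and in 0 of 4 ND brains, and the diets did not overlap. The highest ratio was that of CDD replicate 4, which had both the highest *Cckar* and the lowest *Cckbr* level. The ratio is built from the same values as the comparison of each gene and was not tested.

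**Figure D3:**
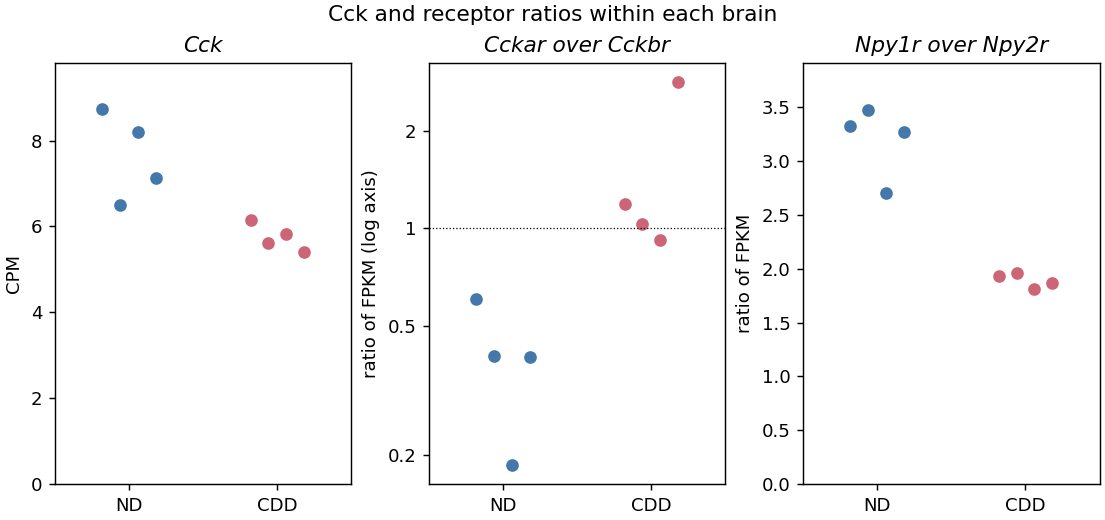
TMM-scaled CPM of *Cck* (left), the ratio of *Cckar* to *Cckbr* from FPKM on a log axis with a dotted line at 1 (middle) and the ratio of *Npy1r* to *Npy2r* from FPKM (right), 1 point per brain, 4 ND and 4 CDD brains. In each panel the CDD and ND brains do not overlap, with *Cckar* over *Cckbr* between 0.921 and 2.82 in CDD and between 0.186 and 0.605 in ND brains.

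The 3 opioid receptor genes were low in both diets, and none was called. *Oprm1*, the gene of the mu receptor bound by morphine, was at 1.15, 1.01, 0.929 and 1.42 CPM in CDD and 1.17, 1.22, 1.24 and 1.13 CPM in ND replicates 1 to 4. CDD replicate 4 was the highest brain and the 4 ND brains lay close together, with a log2 fold change of -0.09 (95% interval -0.51 to 0.34, edgeR adjusted p = 0.845). The gene overlaps *Ipcef1* on the opposite strand, which had 1539 reads over all brains where *Oprm1* had 321, so its level is uncertain if the counting ignored strand, which is not stated. *Oprd1*, the gene of the delta receptor, was at 0.634, 0.637, 0.906 and 0.754 CPM in CDD and 0.556, 0.688, 0.810 and 0.783 CPM in ND brains. The 2 sets of brains overlapped, with a log2 fold change of 0.06 (95% interval -0.47 to 0.58, edgeR adjusted p = 0.923). *Oprk1*, the gene of the kappa receptor for dynorphins, was at 1.06, 1.25, 1.35 and 1.27 CPM in CDD and 1.64, 0.938, 1.62 and 1.91 CPM in ND brains. The lowest brain was ND replicate 2, while the 3 other ND brains lay above all CDD brains, with a log2 fold change of -0.31 (95% interval -0.76 to 0.13, edgeR adjusted p = 0.402). The intervals of all 3 genes include the log2 fold change of *Cck*, -0.41.

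The 4 genes of opioid and related peptide precursors were not called either. *Penk*, which encodes proenkephalin, was at 11.6, 10.7, 4.30 and 4.04 CPM in CDD and at 7.20, 6.53, 6.62 and 6.67 CPM in ND replicates 1 to 4. CDD replicates 1 and 2 lay above and CDD replicates 3 and 4 below all ND brains, and the log2 fold change was 0.17 (95% interval -0.79 to 1.13, edgeR adjusted p = 0.850). Differences on the log2 scale were -0.03 for *Pdyn* (prodynorphin, adjusted p = 0.909), 0.15 for *Pomc* (the precursor of beta-endorphin, adjusted p = 0.714) and -0.03 for *Pnoc* (the nociceptin precursor, adjusted p = 0.896), all in edgeR's test.

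*Sstr1* and *Sstr2* had the highest levels among the 10 receptor genes, and neither was called. *Sstr1* was at 6.88, 9.07, 7.53 and 7.36 CPM in CDD and at 8.72, 9.85, 10.6 and 8.23 CPM in ND replicates 1 to 4. CDD replicate 2 lay among the ND brains and the 3 other CDD brains lay below them. The means were 7.71 ± 0.947 (SD, n = 4) and 9.34 ± 1.06 CPM (SD, n = 4), with a log2 fold change of -0.28 (95% interval -0.49 to -0.06, edgeR adjusted p = 0.108). Without CDD replicate 2, the brain with high Hox counts, the log2 fold change was -0.36 and past the threshold (edgeR adjusted p = 0.0456). *Sstr1* was called in 1 of 8 fits with a brain left out and in 0 of 7 other fits. Without ND replicate 3 its log2 fold change was -0.21 (edgeR adjusted p = 0.345). *Sstr2* was at 37.1, 37.8, 42.3 and 40.3 CPM in CDD and at 35.1, 37.6, 37.2 and 35.3 CPM in ND brains. CDD replicates 2, 3 and 4 lay above all ND brains, replicate 2 by less than 1 CPM, and the log2 fold change was 0.12 (95% interval -0.0025 to 0.24, edgeR adjusted p = 0.220). *Sstr2* overlaps *Slc39a11* on the opposite strand, with 7180 reads over all brains against 10590 of *Sstr2*, so this level too is uncertain if strand was ignored. The FPKM ratio of *Sstr2* to *Sstr1* was 5.14, 3.98, 5.36 and 5.22 in CDD and 3.85, 3.64, 3.36 and 4.09 in ND brains, and overlapped through CDD replicate 2.

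The ligand gene *Sst*, which encodes somatostatin and marks a class of inhibitory interneurons, was lower in CDD brains. It was at 44.0, 39.0, 44.9 and 33.3 CPM in CDD and at 55.6, 47.5, 54.9 and 52.3 CPM in ND replicates 1 to 4. The diets did not overlap. On the log2 scale the difference was -0.38 (SE 0.0833, edgeR adjusted p = 0.0136), and the gene was called lower with each of the 8 brains left out in turn. *Cort*, the gene of the related peptide cortistatin, was at 0.406 to 0.848 CPM, with a log2 fold change of -0.05 (edgeR adjusted p = 0.947). Of the 11 ligand genes listed for the receptors, 8 passed the filter, 0 were called higher and 2 lower (*Cck* and *Sst*), with a median log2 fold change of -0.04 beside 8.83% of all genes called. Without ND replicate 1 or ND replicate 3 the count was 1, that of *Sst*.

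**Figure D4:**
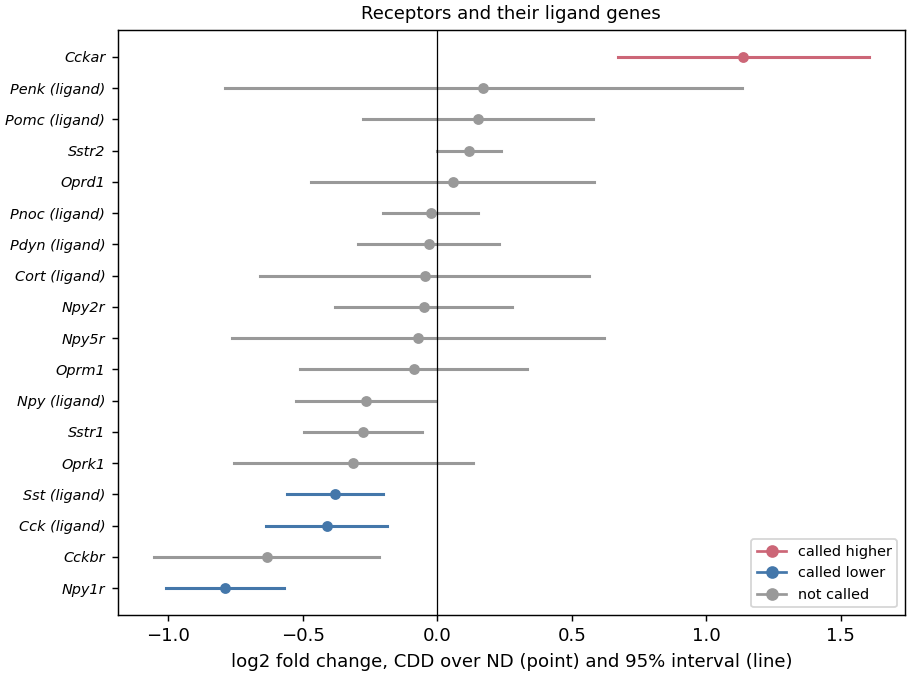
Log2 fold changes of CDD over ND brains (points) with 95% intervals (lines) from edgeR for the 10 receptor genes and the 8 tested ligand genes, colored by call. *Cckar* at 1.14 is the receptor gene called higher, *Npy1r* at -0.79 the one called lower, and *Cck* and *Sst* the ligand genes called lower, while the intervals of *Npy5r* and *Penk* are among the widest.

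The other neuropeptide receptor genes were read from a list of 59, of which 58 were in the table and 43 were tested. Of these, 0 were called higher and 5 lower, beside 4.24% and 4.59% of all tested genes, and 38 were not called. The log2 fold change was above 0 for 12 and below 0 for 31, with a median of -0.18 beside -0.0038 for all tested genes. The share of all genes below 0 was not taken, so the 31 have no such value beside them. In 7 genes the diets did not overlap, all of them lower in CDD brains, beside 15.0% of all tested genes without overlap in either direction. Other fits called some genes of this list higher: 1 higher and 3 lower with DESeq2, 2 and 5 with no filter on low counts, 2 and 4 without CDD replicate 3, and 1 and 1 without ND replicate 4. *Ntsr1*, the gene of the high-affinity neurotensin receptor, was at 8.51, 9.01, 11.1 and 11.9 CPM in CDD and at 15.1, 14.9, 16.2 and 14.9 CPM in ND replicates 1 to 4. Each CDD brain lay below each ND brain, with a log2 fold change of -0.59 (SE 0.0957, edgeR adjusted p = 0.00170), and the call held in all 8 fits that left out a brain. The count over the list was 1 to 6 with a brain left out. It was 1 without CDD replicate 4, ND replicate 1 or ND replicate 3, and 2 without CDD replicate 1, ND replicate 2 or ND replicate 4.

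The other 4 calls of this list were lost without 6 of the 8 brains each. *Gipr*, the gene of the receptor for the gut hormone GIP, had a log2 fold change of -0.61 (edgeR adjusted p = 0.0327) and kept its call without CDD replicate 2 or 3. With any other brain left out its adjusted p-value in edgeR was 0.0527 to 0.126. *Hcrtr1*, the gene of the orexin 1 receptor, had a log2 fold change of -0.95 (edgeR adjusted p = 0.0360), with ND replicate 2 inside the range of the CDD brains. *Hcrtr1* rested on 14 to 50 reads per brain and had no adjusted p-value in DESeq2. It kept its call without CDD replicate 2 or ND replicate 2, and had an adjusted p-value of 0.0527 to 0.137 in edgeR without any other brain. *Crhr1*, the gene of the receptor for corticotropin-releasing hormone, had a log2 fold change of -0.31 (edgeR adjusted p = 0.0385), which was -0.27 without CDD replicate 2 (adjusted p = 0.0934). It kept its call without CDD replicate 1 or 3, and its adjusted p-value in edgeR was at most 0.105 with another brain left out. *Ntsr2*, the gene of the second neurotensin receptor, had a log2 fold change of -0.85 (edgeR adjusted p = 0.0407), kept its call without CDD replicate 2 or 3, and had an adjusted p-value of 0.0664 to 0.137 in edgeR without any other brain. *Ntsr2* too was a low gene, with 13 to 43 reads per brain and no adjusted p-value in DESeq2.

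**Figure D5:**
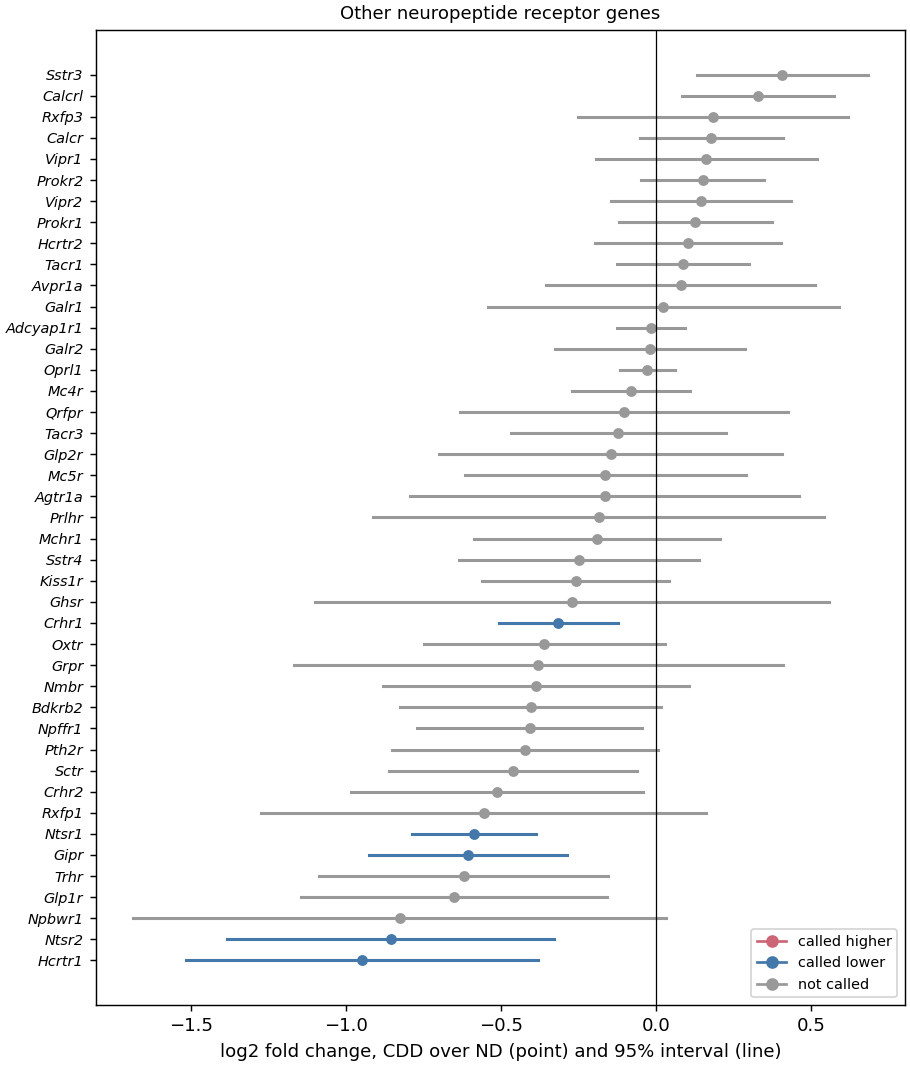
Log2 fold changes of CDD over ND brains (points) with 95% intervals (lines) from edgeR for the 43 tested neuropeptide receptor genes outside the 10, colored by call. Points lie below 0 for 31 genes and above 0 for 12, and the 5 called genes are all lower, from *Crhr1* at -0.31 to *Hcrtr1* at -0.95.

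Genes through which these receptors act (G protein alpha subunits, GIRK potassium channels, adenylyl cyclases, arrestins, receptor kinases and RGS proteins) made up a list of 30, all tested. Of these, 2 were called higher and 5 lower, beside 4.24% and 4.59% of all tested genes, with a median log2 fold change of -0.10. The diets did not overlap in 2 genes that were higher and 8 that were lower in CDD brains, beside 15.0% of all tested genes. *Adcy1*, a calcium-stimulated adenylyl cyclase, was at 133, 154, 153 and 153 CPM in CDD and at 188, 180, 214 and 202 CPM in ND replicates 1 to 4, with a log2 fold change of -0.40 (SE 0.0572, edgeR adjusted p = 0.000913). *Grk3*, a kinase that desensitizes active receptors, had a log2 fold change of -0.33 (edgeR adjusted p = 0.00104). *Rgs4*, which shortens Gi/o and Gq signals, had one of -0.38 (adjusted p = 0.00317) and *Gnaz*, an inhibitory G protein subunit, one of -0.24 (adjusted p = 0.00545), both in edgeR's test. In these 4 genes the diets did not overlap, and the calls held in all 8 fits that left out a brain.

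The other 3 calls of the coupling list were each lost without several of the brains. *Grk2*, a kinase of the same family as *Grk3*, had a log2 fold change of -0.13 (edgeR adjusted p = 0.0351) and kept its call without CDD replicate 3 or 4 alone, with an adjusted p-value of up to 0.150 otherwise. Without CDD replicate 2 its log2 fold change was -0.13 (edgeR adjusted p = 0.0686). *Gnai3*, another inhibitory subunit, was higher in CDD brains by 0.19 on the log2 scale (edgeR adjusted p = 0.0254). Its call was lost without CDD replicate 2 or any ND brain, with an adjusted p-value of up to 0.128, and the log2 fold change without CDD replicate 2 was 0.17 (edgeR adjusted p = 0.0715). *Kcnj5*, a subunit of the GIRK channel, had a log2 fold change of 0.54 (edgeR adjusted p = 0.0401) with brains of both diets overlapping. It kept its call without CDD replicate 1 alone and had an adjusted p-value of up to 0.133 in edgeR otherwise, with a value of 0.54 on the log2 scale without CDD replicate 2 (edgeR adjusted p = 0.0691). With any 1 of the ND brains left out, 4 genes of the list were called.

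Markers of cell types and regions moved with the diet in part, and their part in the receptor results was not tested. The counts of called markers stand beside 8.83% of all tested genes called, 4.24% higher and 4.59% lower. Overlap is given for summed levels, for which no share over all genes was taken. The summed level of 12 markers of postmitotic neurons was 7014 to 7838 CPM in CDD and 7198 to 7469 CPM in ND brains, with 0 called higher and 2 lower. That of 10 neural progenitor markers was 2077 to 2405 CPM in CDD and 1842 to 1962 CPM in ND brains, without overlap. Of these markers, 5 were called higher and 0 lower. Hypothalamic markers (7 genes, 3 called higher) also did not overlap, at 109.6 to 117 CPM in CDD and 92.7 to 101 CPM in ND brains. Markers of sensory ganglia (9 genes in the table, 0 called) were at 100.5 to 127.8 CPM in CDD and 92.4 to 100.1 CPM in ND brains, highest in CDD replicate 2, and those of endothelium (6 genes, 1 called lower) at 226.9 to 239.8 CPM in CDD and 242.7 to 251.7 CPM in ND brains. The CDD and ND ranges overlapped for the markers of cortex (1003 to 1282 and 1220 to 1262 CPM, 2 of 7 called lower), striatum (423 to 451 and 445 to 462 CPM, 2 of 8 called lower) and midbrain dopamine neurons (68.7 to 75.8 and 66.0 to 71.1 CPM, 1 of 7 called higher and 1 lower). They also overlapped for microglia and macrophages (65.6 to 74.2 and 73.6 to 86.1 CPM, 2 of 9 called lower), meningeal fibroblasts (456 to 507 and 484 to 580 CPM, 1 of 7 called higher and 3 lower), erythroid cells (760.0 to 1419 and 823 to 2985 CPM, 2 of 9 called higher), choroid plexus (224 to 531 and 320.3 to 359 CPM, 1 of 5 called higher) and pituitary (11.8 to 13.8 and 10.3 to 14.1 CPM, 3 tested and 0 called). Hox genes of hindbrain and spinal cord summed to 2.99, 141, 0.395 and 0.422 CPM in CDD replicates 1 to 4. In ND brains they summed to 0.375 to 1.16 CPM. How much of the caudal hindbrain each preparation held was not tested. No marker in the table was at 0 in every brain, and the neuronal and progenitor markers expected of a fetal brain were present in all 8.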

How the data were processed

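RNA-seq libraries of 4 CDD and 4 ND whole brains (E14.5, WT) were grouped by the diet in their labels. Unnormalized counts and FPKM values, both per gene and brain, were deposited by the authors. The table also holds a normalized signal and the authors' log2 fold change, p-value and adjusted p-value, which were not used. The submitters' processing notes name HISAT2 2.0.5, featureCounts 1.5.0-p3 and DESeq2 1.20.0, with no role stated, and the strand setting of the counting is not given in the sources used here.

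Low counts were removed by edgeR 4.0.16 (filterByExpr, minimum count 10), which left 19367 genes. These were TMM-scaled, and diet was the only term of a robust quasi-likelihood test. The threshold was an adjusted p-value under 0.05 (Benjamini-Hochberg over all tested genes). Library totals were 31770217 to 43121170 counts, and the common biological coefficient of variation was 0.0814. No pair of brains of the same diet had counts within sampling noise of each other (chi-square per degree of freedom 3.79 to 23). FPKM was used for levels between genes and for ratios. The test was tried on simulated data first. DESeq2 1.42.0, limma 3.58.1, R 4.3.3, Python 3.11.15, pandas 2.3.3 and matplotlib 3.10.9 were also used.

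The 10 receptor genes, the lists of ligands, other receptors, coupling genes and markers, and the tests were chosen with earlier results of these data known. Named genes were the receptors, their 11 ligand genes (8 of them tested) and every called gene of the other receptors and of the coupling list. The alternatives were DESeq2, RLE and upper-quartile normalization, no filter, at least 10 counts in every brain, a replicate block, limma-voom and each brain left out. Of the gene identifiers, 2.14% have the same start in GENCODE M21 of GRCm38, so positions are given as deposited, without a build, and promoter sequences from RefSeq on GRCm38.p6 are kept apart from them. Motif shares were taken over 32851 windows of 250 bases. The 18 Hox genes in the table did not pass the filter.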

Additional observations from a re-analysis of the deposited data

Results flagged for a closer look

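Among 60 groups of 4 brains checked, 2 held a brain far from the other 3 of its diet, where about 3 would by chance (1 in 20). *Adcy1* was at 133 CPM in CDD replicate 1, below the other CDD brains at 153 to 154 CPM, and *Gnai3* was at 142 CPM in ND replicate 3, where the 3 others of that diet were at 148 to 149 CPM. None of the 10 receptor genes or the 8 tested ligand genes held such a brain in either diet.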

How the results depend on the processing

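With a brain left out in turn, 2 to 3 of the 10 receptor genes were called, 1 to 6 of the other receptors, 1 to 2 of the ligands, 4 to 9 of the coupling genes and 471 to 2495 of all genes (471 without ND replicate 3, 615 without ND replicate 4 and 688 without ND replicate 1). The log2 fold change changed sign with a brain left out for *Npy2r* (-0.12 to 0.047), *Npy5r* (-0.43 to 0.10), *Oprm1* (-0.22 to 0.0037), *Oprd1* (-0.069 to 0.13), *Penk* (-0.10 to 0.38), *Pdyn* (-0.16 to 0.025), *Pomc* (-0.031 to 0.33), *Pnoc* (-0.079 to 0.032) and *Cort* (-0.19 to 0.17), none of which was called. In the 7 other fits, *Penk* turned to -0.018 with limma-voom, and the cause was not tested. No other named gene changed sign there, and the counts of calls stayed within 1.5 times. Of 205 comparisons of a tested named gene with another fit, 196 kept direction and side of the threshold, 5 lost and 3 gained the call. The 3 gained were those of *Cckbr*. Lost were *Hcrtr1* (adjusted p = 0.0521) and *Kcnj5* (0.0628) with limma-voom, *Grk2* with no filter (0.0674), and *Crhr1* (0.0501) and *Grk2* (0.0517) with the replicate block in edgeR. DESeq2 gave no adjusted p for 5 named genes (*Npy5r*, *Oprd1*, *Cort*, *Hcrtr1* and *Ntsr2*). The order of levels was the same for 10 of 10 receptors with TMM-scaled CPM per kilobase. Both scales use the same counts and gene lengths, so the order could hardly differ and this is no independent check.

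Replicate numbers were not taken to pair the brains in the main fit. Correlations between brains of the same number were -0.133 to 0.232, and 6 of 8 brains correlated best with their own number. Whether brains of the same number shared a batch was not tested. With the number as a block, 3 of the 10 receptor genes (*Cckbr* added, log2 fold change -0.66, adjusted p = 0.0345 in edgeR), 5 other receptors, 2 ligands, 6 coupling genes and 1812 of all genes were called. The replicate block called 1 of the other receptors higher and 4 lower. Depth limits what can be said of low genes such as *Npy5r*, with 10 to 30 reads per brain and a 95% interval of -0.76 to 0.62.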
